A study of Mus musculus with 8 samples.

Results

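The expression of 34 mouse genes of the complement system and of the acute phase response was examined in inflamed and control paws, and 32 of them were measured, among 19938 named genes on the array. They were taken from a fixed list of gene symbols. A gene was represented by the probe set whose annotation gives that symbol alone, and each of the 32 had 1 such probe set. C3, the central component of the cascade, and Cfd, the protease that starts the alternative pathway, had no such probe set and were not analysed here. The measured genes fall into 7 recognition genes, 4 amplification genes, 7 terminal components, 4 receptors, 8 regulators and 2 acute phase genes.

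RNA from excised paws of male DBA1/J mice, aged 8 to 10 weeks, was hybridised to 8 Affymetrix Mouse Gene 1.0 ST arrays, 2 for each of 4 groups of 8 mice. CIA+MLIF mice carried collagen-induced arthritis and received MLIF. CIA mice carried the arthritis without the peptide. Adjuvant+MLIF mice received adjuvant and MLIF without collagen, and adjuvant mice received adjuvant alone. The collagen, 150 µg of type II from chicken, was given in complete Freund adjuvant. All 4 groups had thus been exposed to complete adjuvant and to a booster in incomplete adjuvant at week 3. MLIF, the monocyte locomotion inhibitory factor of the amoeba Entamoeba histolytica, is a pentapeptide. It was given by the nose each week, from 1 week before the first collagen in the CIA+MLIF mice and for 9 weeks in the adjuvant+MLIF mice. The sample labels date the collection of paws to 4 weeks after the booster, and the series text to before it. The sample titles call the 2 arrays of each group biological replicates. The labels leave unsaid whether 1 mouse or a pool stands behind an array. The p-values thus cover only array-to-array spread, which may differ from the spread between mice.

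Complement is a chain of plasma and membrane proteins that tags immune complexes and microbes and attracts leukocytes. Recognition proteins bind antibody or sugars and activate proteases, convertases amplify the signal, and the terminal components assemble a pore in the target membrane. Host cells carry regulators that break up convertases or block the pore, and anti-collagen antibody makes cartilage a surface on which the cascade can start. Acute phase proteins are secreted mainly by the liver during inflammation, and some, such as serum amyloid A3, are also made in inflamed tissue.

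All values are the deposited log2 signals, on which a difference of 1 is a doubling of signal, and levels of different probe sets are not compared with each other. With 2 arrays a group, the median standard error (SE) of a log2 change was 0.18. CIA replicate 1 stood apart: its median signal was 6.66, against 7.07 to 7.10 on the other 7 arrays, and all probe sets together had a median change of -0.25 in CIA against adjuvant and of 0.24 in CIA+MLIF against CIA. For the genes of the 32 that passed in these 2 comparisons, the change is therefore also given minus that median, and all other changes are as fitted unless stated. The 2 adjuvant+MLIF arrays were closer to each other (SD of their difference over all probe sets 0.0936) than the arrays of CIA+MLIF (0.263), CIA (0.324) or adjuvant (0.207). Of the cartilage and bone markers, 9 of 9 lay above the control median (the median signal of the table entries taken as array controls) on every array. So did all 12 skeletal muscle, all 12 fibroblast and synovial and all 11 macrophage markers, so this does not test the paw label. Epidermal markers did not run evenly through the groups, as described with the other cell type markers at the end.

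In CIA paws the acute phase genes Saa3 and Hp, the protease C1s1 and properdin (Cfp) were higher than in adjuvant paws, and the pore component C7 and the regulators Cd55, Cd46, Clu and Vtn were lower. Of 32 measured genes, 4 thus rose and 5 fell in CIA against adjuvant, by limma's moderated test across all probe sets with adjusted p under 0.05. That is 28.1% of them, against 18.5% of all 28944 probe sets (4.30% higher and 14.2% lower). With MLIF in arthritic mice, that is in CIA+MLIF against CIA, 4 genes rose (C7, Cd55, Clu and Vtn) and 4 fell (Saa3, Hp, Cfp and C1s1). This 25% stands against 14.7% of all probe sets (11.5% higher and 3.25% lower). Both comparisons use the same 2 CIA arrays, so the opposite signs do not come from separate measurements. The median change of the 32 genes was -0.15 in CIA against adjuvant and 0.20 in CIA+MLIF against CIA, close to the medians of all probe sets given above. Counted by arrays alone, 9 of the 32 had both CIA arrays above both adjuvant arrays and 11 had both below, against 12.5% and 44.7% of all probe sets. Likewise 12 had both CIA+MLIF arrays above both CIA arrays and 6 below, against 40.7% and 10.9% of all. After quantile normalization, which gives all arrays one distribution, 10 genes rose and 6 fell in CIA against adjuvant, with 28.1% of all probe sets past the threshold, and the median of the 32 turned to 0.12. It gave 6 rises and 9 falls in CIA+MLIF against CIA, with 24.5% of all probe sets past the threshold and a median of -0.04 for the 32.

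**Figure D1:**
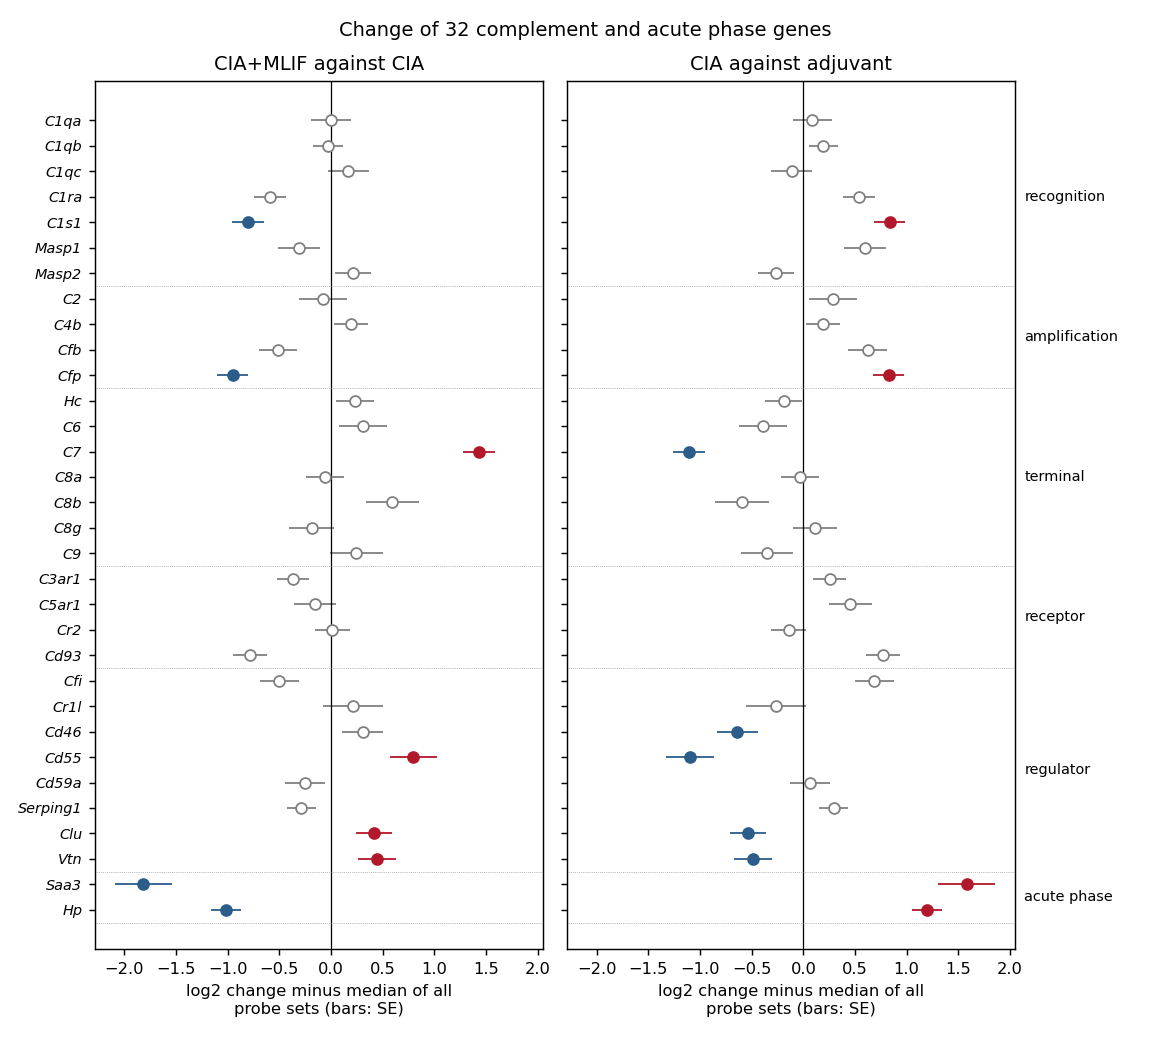
Log2 change of the 32 measured genes minus the median change of all probe sets, for CIA+MLIF against CIA on the left and CIA against adjuvant on the right. Points are fitted changes, bars their SE, and filled points are genes with an adjusted p under 0.05 (red higher, blue lower). Saa3 lies at -1.82 and 1.58, and C7 at 1.43 and -1.11.

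The acute phase pair gave the largest rises among the 32 genes in CIA paws. Saa3 encodes serum amyloid A3, an apolipoprotein of mice that macrophages, fibroblasts and adipocytes can make. Its log2 signal was 7.91 and 8.24 on the CIA+MLIF arrays, 9.33 and 9.98 on the CIA arrays, 8.78 and 8.71 on the adjuvant+MLIF arrays, and 7.98 and 8.67 on the adjuvant arrays. Both CIA arrays lay above all others. In CIA against adjuvant the log2 change was 1.34 (SE 0.27, adjusted p = 0.0101, 1.58 after subtracting the median change), a 2.52-fold difference. The change in CIA+MLIF against CIA was -1.58 (SE 0.27, adjusted p = 0.00544, -1.82 after subtracting the median). With weights given to the arrays by limma, neither passed (adjusted p = 0.120 and 0.0996). The first call was lost without adjuvant replicate 1 (0.99, adjusted p = 0.0954), the lower of a wide pair. The second was lost without CIA+MLIF replicate 1 (-1.41, adjusted p = 0.0697).

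Hp encodes haptoglobin, which binds free haemoglobin. Its log2 signal was 9.82 and 10.01 on the CIA+MLIF arrays, 10.70 and 10.68 on the CIA arrays, 9.91 and 9.87 on the adjuvant+MLIF arrays, and 9.67 and 9.80 on the adjuvant arrays. The CIA arrays again did not overlap with any other group. The change was 0.95 in CIA against adjuvant (SE 0.15, adjusted p = 0.00204, 1.20 after subtracting the median) and -0.78 in CIA+MLIF against CIA (SE 0.15, adjusted p = 0.00801, -1.02 after subtracting the median). With limma's array weights the rise passed (adjusted p = 0.0367) and the fall did not (adjusted p = 0.129). Without CIA+MLIF replicate 1 the fall was -0.68 (adjusted p = 0.0810). Neutrophils also store haptoglobin. The 12 neutrophil markers all rose in CIA against adjuvant and all fell in CIA+MLIF against CIA, where 3.25% of all probe sets fell. Of 9 hepatocyte markers, 0 rose and 3 fell in CIA against adjuvant, where 4.30% of all probe sets rose and 14.2% fell. Epidermal markers (10 of 10) and fibroblast and synovial markers (7 of 12, with 1 lower) rose there too. The part of any of these cell types in the Hp and Saa3 signals was not tested.

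**Figure D2:**
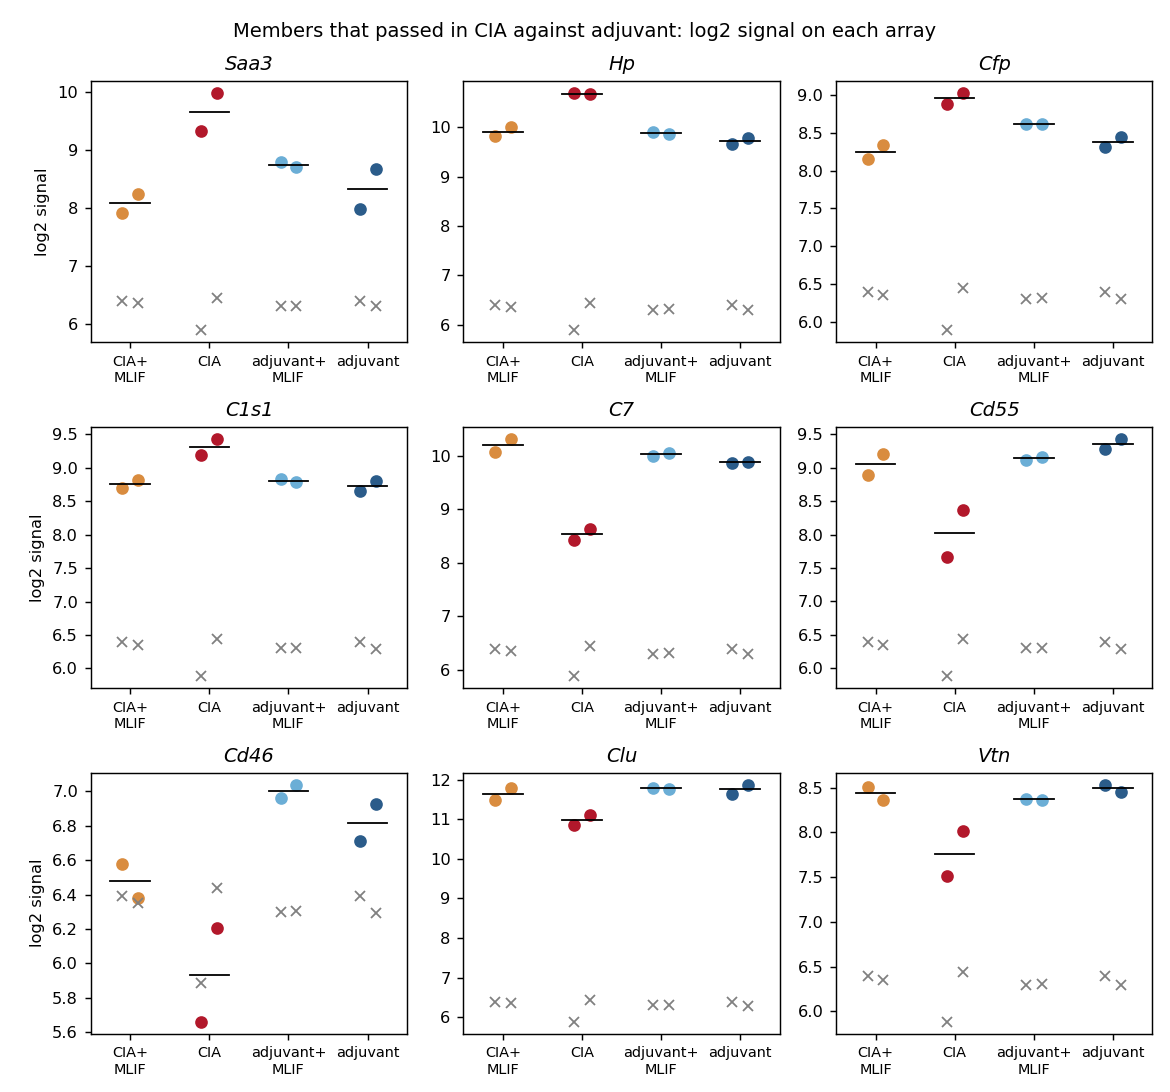
Log2 signal on each array for the 9 genes that passed in CIA against adjuvant, with CIA+MLIF, CIA, adjuvant+MLIF and adjuvant from left to right. Circles are arrays, lines the group means and grey crosses the control median of the same array. For C7 the CIA arrays, at 8.43 and 8.63, lie below the other 6, which start at 9.88.

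The promoter window of Saa3 is shown because Saa3 had the largest rise in CIA against adjuvant and the largest fall in CIA+MLIF against CIA among the 32 genes. It covers 250 bases before to 50 after the RefSeq start (GRCm38.p6, chr7:46715627-46715926, minus strand), written 5′ to 3′. Capitals mark matches to TTNNGNAA (a C/EBP pattern, at 35, 60, 122 and 152 of the window, counted from its first base) and to the interferon-response pattern ISRE (GAAA, any 2 bases, GAAA, at 126, overlapping the C/EBP match at 122), on either strand.
Saa3: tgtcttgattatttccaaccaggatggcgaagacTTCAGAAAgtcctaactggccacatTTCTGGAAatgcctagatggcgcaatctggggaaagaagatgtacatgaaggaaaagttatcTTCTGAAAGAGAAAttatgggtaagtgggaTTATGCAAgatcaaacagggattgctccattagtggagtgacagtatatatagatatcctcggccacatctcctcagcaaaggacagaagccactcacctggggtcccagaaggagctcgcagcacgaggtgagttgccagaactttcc

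Among the 7 recognition genes, C1s1 alone passed. C1qa, C1qb and C1qc encode the chains of C1q, the collagen-like protein that binds antibody. C1s1 and C1ra encode its partner proteases, and Masp1 and Masp2 the proteases of the lectin pathway. C1s1 had a log2 signal of 8.70 and 8.81 on the CIA+MLIF arrays, 9.20 and 9.44 on the CIA arrays, 8.83 and 8.79 on the adjuvant+MLIF arrays, and 8.65 and 8.81 on the adjuvant arrays. The CIA arrays lay above the other 6. The change was 0.59 in CIA against adjuvant (SE 0.15, adjusted p = 0.0293, 0.83 after subtracting the median) and -0.56 in CIA+MLIF against CIA (SE 0.15, adjusted p = 0.0410, -0.80 after subtracting the median). Both calls were lost without any 1 of the 6 arrays outside the CIA group, with adjusted p between 0.0525 and 0.210 for the first and between 0.0824 and 0.218 for the second.

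C1ra, the neighbour of C1s1 with 0 protein-coding genes between them in RefSeq, had a change of 0.30 (SE 0.16, adjusted p = 0.207) in CIA against adjuvant, and it passed after quantile normalization (0.43, adjusted p = 0.0264). Its signal was 7.40 and 7.61 on the CIA+MLIF arrays, 7.77 and 7.95 on the CIA arrays, 7.64 and 7.78 on the adjuvant+MLIF arrays, and 7.48 and 7.64 on the adjuvant arrays. The CIA and adjuvant arrays did not overlap, but CIA and adjuvant+MLIF did. The C1q chains, whose 3 genes also lie side by side, did not separate CIA from adjuvant. C1qa was at 9.78 and 10.02 in CIA+MLIF, 9.54 and 9.79 in CIA, 10.10 and 10.16 in adjuvant+MLIF and 9.59 and 10.05 in adjuvant (change in CIA against adjuvant -0.16, SE 0.19). C1qb had changes of -0.05 (SE 0.14) in CIA against adjuvant and 0.21 (SE 0.14) in CIA+MLIF against CIA. For C1qc these were -0.36 (SE 0.20) and 0.41 (SE 0.20), close to the median shifts. Macrophages are a main source of C1q. Of 11 macrophage markers, 2 rose and 2 fell in CIA against adjuvant, where 4.30% of all probe sets rose and 14.2% fell. The mean of these markers was at 1.60 and 1.80 above the array median in CIA+MLIF and 1.77 and 1.70 in CIA. It was at 1.87 and 1.87 in adjuvant+MLIF and 1.69 and 1.86 in adjuvant.

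Masp1 was at 7.58 and 7.56 in CIA+MLIF, 7.31 and 7.96 in CIA, 7.28 and 7.31 in adjuvant+MLIF and 7.31 and 7.26 in adjuvant. As deposited, its high CIA value came from replicate 2. Without replicate 1 its change in CIA against adjuvant was 0.67, against 0.35 (adjusted p = 0.242) with both. Set against the array median, both CIA arrays (0.66 and 0.89) lay above both adjuvant arrays (0.24 and 0.18). The Masp1 change passed after quantile normalization (0.51, adjusted p = 0.0106). Masp2 was at 6.91 and 6.85 in CIA+MLIF, 6.19 and 6.66 in CIA, 6.94 and 6.91 in adjuvant+MLIF and 6.96 and 6.92 in adjuvant. The CIA arrays were the lowest, and the change of -0.51 (SE 0.17) did not pass (adjusted p = 0.0722, -0.27 after subtracting the median).

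The 4 amplification genes gave 1 call. Cfp encodes properdin, which steadies the alternative pathway convertase and is made by neutrophils and macrophages. Its log2 signal was 8.15 and 8.35 in CIA+MLIF, 8.89 and 9.03 in CIA, 8.61 and 8.63 in adjuvant+MLIF and 8.31 and 8.44 in adjuvant paws. CIA was highest, and the adjuvant+MLIF arrays lay above those of adjuvant and of CIA+MLIF. The change was 0.58 in CIA against adjuvant (SE 0.15, adjusted p = 0.0279, 0.83 after subtracting the median) and -0.71 in CIA+MLIF against CIA (SE 0.15, adjusted p = 0.0141, -0.95 after subtracting the median). The first was lost without any 1 of the adjuvant or adjuvant+MLIF arrays (adjusted p 0.0863 to 0.199), and the second without CIA+MLIF replicate 1 (-0.61, adjusted p = 0.121).

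Cfb, the protease of the alternative convertase, was at 9.87 and 10.23 in CIA+MLIF, 10.21 and 10.43 in CIA, 10.34 and 10.32 in adjuvant+MLIF and 9.77 and 10.12 in adjuvant. Its change of 0.38 (SE 0.19, adjusted p = 0.180) in CIA against adjuvant passed after quantile normalization (0.51, adjusted p = 0.00972). C2, the protease of the classical convertase and the neighbour of Cfb, depended on the array chosen: it was at 8.07 and 8.11 in CIA+MLIF, 7.54 and 8.33 in CIA, 8.11 and 8.11 in adjuvant+MLIF and 7.86 and 7.93 in adjuvant. The 2 deposited CIA values lie on opposite sides of the adjuvant ones. The change of 0.04 (SE 0.23, adjusted p = 0.904) became 0.44 without CIA replicate 1 and -0.35 without CIA replicate 2. Set against the array median, C2 was at 0.88 and 1.26 in CIA, above the 0.78 and 0.84 in adjuvant. After quantile normalization its change did not pass (0.18, adjusted p = 0.373). C4b, which supplies the other part of that convertase, was at 10.39 and 10.46 in CIA+MLIF, 9.81 and 10.18 in CIA, 10.41 and 10.40 in adjuvant+MLIF and 9.96 and 10.13 in adjuvant. Both MLIF groups lay above both groups without it, but neither change passed (0.43, adjusted p = 0.110 in CIA+MLIF against CIA, and 0.36, adjusted p = 1 in adjuvant+MLIF against adjuvant; SE 0.17 each). After quantile normalization the first of these changes did pass (0.30, adjusted p = 0.0448) and the second did not (0.33, adjusted p = 0.212). C4b has a near-identical mouse paralogue, and the share of its signal that could come from that gene was not tested.

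C7, with Cd55 close behind, had the largest fall of the 32 genes in CIA against adjuvant in the fit to all arrays. Its protein joins the C5b and C6 complex and anchors the growing pore in the membrane. C7 was at 10.08 and 10.32 on the CIA+MLIF arrays, 8.43 and 8.63 on the CIA arrays, 10.01 and 10.06 on the adjuvant+MLIF arrays, and 9.88 and 9.90 on the adjuvant arrays. The CIA arrays were more than 1.2 below any other, and the CIA+MLIF arrays lay above all 4 arrays without collagen. The change was -1.35 in CIA against adjuvant (SE 0.15, adjusted p = 0.000416, -1.11 after subtracting the median), which left 0.391 of the adjuvant signal. The change in CIA+MLIF against CIA was 1.67 (SE 0.15, adjusted p = 0.000225, 1.43 after subtracting the median), a 3.18-fold difference. Both calls held in all 19 other settings, and in these the first ranged from -1.45 to -1.14. Markers of skeletal muscle (12 of 12) and of adipocytes (10 of 12) fell along with C7 in CIA against adjuvant, as did 14.2% of all probe sets. The part of muscle and adipocytes in the C7 signal was not tested. Fewer cells of a type and less RNA per cell cannot be told apart in tissue RNA.

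The C7 promoter window (GRCm38.p6, chr15:5063724-5064023, minus strand) is shown because the C7 calls held in every setting in both comparisons. Capitals mark matches to TTNNGNAA (C/EBP, at 66 and 108) and to TTCNNNGAA (STAT, at 87).
C7: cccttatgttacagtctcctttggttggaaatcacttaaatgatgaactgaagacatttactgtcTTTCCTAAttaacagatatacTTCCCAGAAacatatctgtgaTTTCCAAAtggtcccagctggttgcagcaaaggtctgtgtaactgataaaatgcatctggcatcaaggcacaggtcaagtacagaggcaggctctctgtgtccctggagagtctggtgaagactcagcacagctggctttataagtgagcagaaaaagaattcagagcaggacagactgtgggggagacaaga

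The other 6 terminal genes, Hc (which encodes C5), C6, C8a, C8b, C8g and C9, are made mainly in the liver. Each lay below the control median on all 8 arrays, so their differences are those of signals near background. C6, which in RefSeq is separated from C7 by 1 protein-coding gene, was at 5.98 and 5.90 in CIA+MLIF, 5.02 and 5.77 in CIA, 5.86 and 5.90 in adjuvant+MLIF and 6.17 and 5.89 in adjuvant paws. C8b had the change nearest the threshold, -0.84 (SE 0.26, adjusted p = 0.0524) in CIA against adjuvant and 0.83 (SE 0.26, adjusted p = 0.0621) in CIA+MLIF against CIA, with signals of 6.29 and 6.14 in CIA+MLIF, 4.94 and 5.83 in CIA, 6.08 and 6.26 in adjuvant+MLIF and 6.19 and 6.26 in adjuvant. After quantile normalization both C8b changes passed (-0.43, adjusted p = 0.0389, and 0.43, adjusted p = 0.0459). On the deposited signals of C6 and C8b the CIA arrays were lowest, and replicate 1 was the lower of them. The changes of Hc, C8a, C8g and C9 in CIA against adjuvant were -0.44, -0.28, -0.13 and -0.60 (SE 0.18, 0.19, 0.21 and 0.26), and 0 of them passed. Without CIA replicate 2, which leaves the dim replicate 1, all 7 terminal genes passed as lower, but so did 16112 of all 28944 probe sets.

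**Figure D3:**
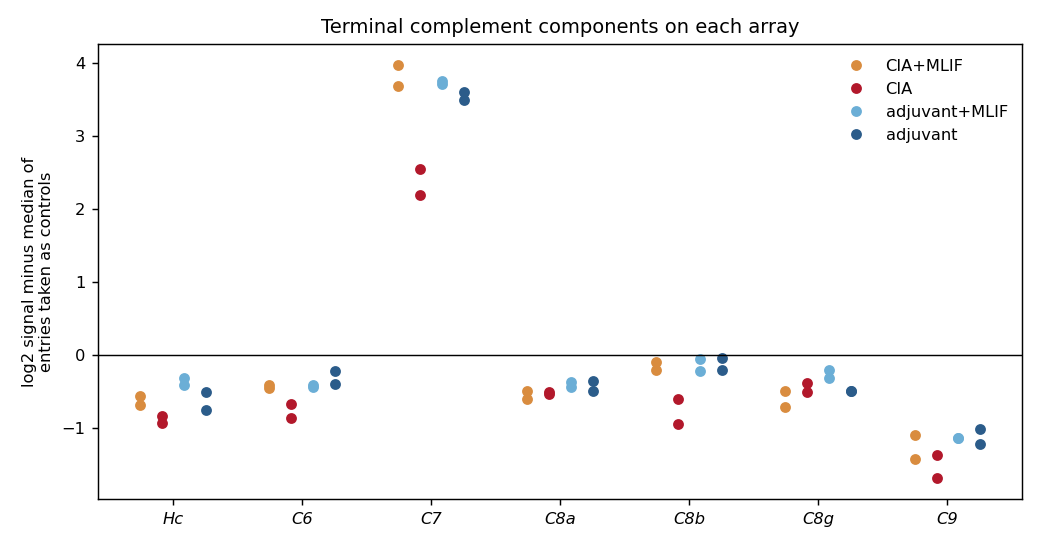
Log2 signal of the 7 terminal components on each array, minus the control median of that array. Circles are arrays, with CIA+MLIF, CIA, adjuvant+MLIF and adjuvant from left to right at each gene. C7 stands above 0 on all 8 arrays and the other 6 genes below it.

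None of the 4 receptors passed in any comparison in the main limma fit of the deposited values. C3ar1 and C5ar1 are the receptors of the anaphylatoxins C3a and C5a on myeloid cells, Cr2 is the B cell receptor for C3 fragments, and Cd93 is a C1q-receptor-like protein of endothelium and myeloid cells. Cd93 came nearest, at 9.39 and 9.44 in CIA+MLIF, 9.77 and 10.16 in CIA, 9.40 and 9.30 in adjuvant+MLIF and 9.46 and 9.43 in adjuvant. Both CIA arrays were above the other 6. Its changes were 0.52 (SE 0.17, adjusted p = 0.0581) in CIA against adjuvant and -0.55 (SE 0.17, adjusted p = 0.0572) in CIA+MLIF against CIA, and both passed after quantile normalization (0.69, adjusted p = 0.00148, and -0.70, adjusted p = 0.00157).

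C5ar1 was at 7.74 and 7.56 in CIA+MLIF, 7.25 and 7.88 in CIA, 7.41 and 7.43 in adjuvant+MLIF and 7.38 and 7.34 in adjuvant. The CIA pair spanned the range of the other groups, with a change of 0.21 (SE 0.20, adjusted p = 0.473) in CIA against adjuvant and of 0.52 without CIA replicate 1 (adjusted p = 0.0178). It also passed after quantile normalization (0.37, adjusted p = 0.0499). C3ar1 lay between 9.52 and 9.88 on all arrays, with a change of 0.01 (SE 0.16, adjusted p = 0.975) in CIA against adjuvant. In CIA+MLIF against CIA, C3ar1 passed as lower after quantile normalization (-0.29, adjusted p = 0.0429). Cr2 stayed below the control median on all 8 arrays, with a change of -0.39 (SE 0.17, adjusted p = 0.140) in CIA against adjuvant.

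Of the 8 regulators, 4 fell and 0 rose in CIA against adjuvant, against 14.2% lower and 4.30% higher among all probe sets. In CIA+MLIF against CIA 3 rose and 0 fell, against 11.5% higher and 3.25% lower among all. Over the whole array, too, falls outnumbered rises in the first comparison and rises outnumbered falls in the second. After quantile normalization Cfi also passed, as higher in the first and lower in the second. Cd55 encodes decay-accelerating factor, a membrane protein that breaks up convertases. It was at 8.89 and 9.21 in CIA+MLIF, 7.66 and 8.37 in CIA, 9.12 and 9.16 in adjuvant+MLIF and 9.28 and 9.43 in adjuvant. All CIA values lay below all others. The change was -1.34 in CIA against adjuvant (SE 0.23, adjusted p = 0.00392, -1.10 after subtracting the median) and 1.04 in CIA+MLIF against CIA (SE 0.23, adjusted p = 0.0177, 0.80 after subtracting the median). The fall held in all 19 other settings, from -1.69 to -0.99. The rise was lost without either CIA+MLIF array, with adjusted p of 0.0635 and 0.120.

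Cd46 encodes membrane cofactor protein, which in mice is known chiefly from the sperm acrosome, and it neighbours Cr1l. It was at 6.58 and 6.38 in CIA+MLIF, 5.66 and 6.21 in CIA, 6.96 and 7.04 in adjuvant+MLIF and 6.71 and 6.93 in adjuvant. Both CIA arrays were below the control median and the other 6 above it. The change of -0.88 in CIA against adjuvant (SE 0.20, adjusted p = 0.0160, -0.64 after subtracting the median) was lost without either adjuvant array (adjusted p 0.0632 and 0.129). For CIA+MLIF against CIA the change was 0.55 (SE 0.20, adjusted p = 0.0975).

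Clu and Vtn encode clusterin and vitronectin, secreted proteins that keep the terminal complex from entering membranes. Clu was at 11.48 and 11.78 in CIA+MLIF, 10.85 and 11.10 in CIA, 11.79 and 11.77 in adjuvant+MLIF and 11.63 and 11.88 in adjuvant. Vtn was at 8.51 and 8.37 in CIA+MLIF, 7.51 and 8.01 in CIA, 8.37 and 8.37 in adjuvant+MLIF and 8.53 and 8.46 in adjuvant. For both genes the CIA arrays lay below the other 6. Their changes were -0.78 (SE 0.17, adjusted p = 0.0148) and -0.74 (SE 0.18, adjusted p = 0.0248) in CIA against adjuvant, or -0.53 and -0.49 after subtracting the median. Set against CIA, CIA+MLIF gave 0.66 (SE 0.17, adjusted p = 0.0358) and 0.68 (SE 0.18, adjusted p = 0.0394), or 0.42 and 0.44 after subtracting it. In CIA against adjuvant the Clu call was lost without either adjuvant array (adjusted p 0.0520 and 0.135), and the Vtn call without any 1 of the adjuvant or adjuvant+MLIF arrays (0.0545 to 0.160). Among the fits with 1 array left out, the Clu call in CIA+MLIF against CIA held only without CIA replicate 2. The Vtn call held there only without 1 of the CIA arrays. Both calls held after quantile normalization (adjusted p = 0.000788 for Clu and 0.0103 for Vtn) but not with limma's array weights (0.279 and 0.191).

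The other 4 regulators did not pass in these comparisons. Serping1, the C1 inhibitor, was at 12.35 and 12.35 in CIA+MLIF, 12.33 and 12.48 in CIA, 12.43 and 12.42 in adjuvant+MLIF and 12.37 and 12.34 in adjuvant, a range of 0.15 over 8 arrays. Cd59a, which blocks the last step of the pore, had a change of -0.18 (SE 0.20, adjusted p = 0.513) in CIA against adjuvant. Cr1l, the rodent convertase regulator known as Crry, was at 8.04 and 8.43 in CIA+MLIF, 7.30 and 8.26 in CIA, 8.55 and 8.45 in adjuvant+MLIF and 8.15 and 8.44 in adjuvant, so that its change of -0.51 (SE 0.29, adjusted p = 0.229) rested on CIA replicate 1. It was -0.03 without that array. Cfi, the protease that cleaves C3b and C4b, lay below the control median on all 8 arrays, with a change of 0.44 (SE 0.19, adjusted p = 0.133) that passed after quantile normalization (0.88, adjusted p = 0.00277).

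In mice without collagen, MLIF moved none of the 32 genes past the threshold, and 0% of all probe sets passed. The count at an unadjusted p under 0.05 was 1 gene (Cfi, log2 change 0.45, SE 0.19), against 1107 of all probe sets, or 3.82%. Both adjuvant+MLIF arrays lay above both adjuvant arrays for 18 of the 32 genes and below them for 4, against 31.7% and 23.0% of all probe sets. The fitted changes were 0.15 for C7, 0.42 for Saa3, 0.15 for Hp, 0.24 for Cfp and -0.22 for Cd55. With weights given to the arrays by limma, C4b (0.36, adjusted p = 0.0291) and Cfi (adjusted p = 0.0369) passed as higher, which is 2 of 32 genes, against 4.98% of all probe sets (430 higher and 1010 lower). In that setting an adjuvant+MLIF array had a weight of 7.76, against 1.24 for an adjuvant array. The weight was 0.754 for each CIA+MLIF array and 0.138 for each CIA array. CIA replicate 1 was thus not weighted below CIA replicate 2.

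None of the 32 genes passed in CIA+MLIF against adjuvant+MLIF, against 0.729% of all probe sets (0.712% higher and 0.0173% lower), and the count remained 0 in every other setting. The count at an unadjusted p under 0.05 was 3 genes, all lower in CIA+MLIF: Saa3 (-0.67, SE 0.27), Cd46 (-0.52, SE 0.20) and Cfp (-0.37, SE 0.15). Both CIA+MLIF arrays lay above both adjuvant+MLIF arrays for 4 genes and below for 14, against 21.0% and 32.2% of all probe sets. C7 differed by 0.17 (SE 0.15) and Hp by 0.02 (SE 0.15). With SE of this size, small differences would not have been detectable.

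Whether MLIF acted differently with and without collagen was tested as an interaction, that is the change in CIA+MLIF against CIA minus that in adjuvant+MLIF against adjuvant. C7 passed as higher, with an interaction of 1.52 (SE 0.22, adjusted p = 0.00341). Saa3 (-2.00, SE 0.39, adjusted p = 0.0140), Cfp (-0.95, SE 0.21, adjusted p = 0.0271) and Hp (-0.93, SE 0.21, adjusted p = 0.0262) passed as lower. These 4 of 32 genes are 12.5%, against 7.24% of all probe sets (5.62% higher and 1.62% lower). Cd55 was at 1.26 (SE 0.32, adjusted p = 0.0518). The Saa3 call was lost without CIA+MLIF replicate 1 or adjuvant replicate 1 (adjusted p 0.0590 to 0.0871), and the calls of Cfp and Hp without any 1 of the 6 arrays outside the CIA group (0.0575 to 0.181 and 0.0558 to 0.193). The C7 call held in all 18 other settings in which an interaction could be fitted. The interaction contains the same CIA arrays as both earlier comparisons.

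Of 25 other measured complement genes, 2 rose and 4 fell in CIA against adjuvant (8% and 16%, against 4.30% and 14.2% of all probe sets). In CIA+MLIF against CIA, 4 rose and 2 fell (16% and 8%, against 11.5% and 3.25% of all). The median changes of the list, -0.20 and 0.34, were near those of all probe sets, -0.25 and 0.24. Vsig4, a macrophage receptor for C3b fragments, was at 8.26 and 8.69 in CIA+MLIF, 6.85 and 7.31 in CIA, 8.90 and 8.85 in adjuvant+MLIF and 8.44 and 8.73 in adjuvant. The CIA arrays lay lowest, with a change of -1.50 (SE 0.21, adjusted p = 0.00136) in CIA against adjuvant and of 1.40 (SE 0.21, adjusted p = 0.00284) in CIA+MLIF against CIA. Thbd, thrombomodulin, fell in CIA against adjuvant (-0.86, SE 0.22, adjusted p = 0.0290). Ptx3, a pentraxin that binds C1q, rose (0.82, SE 0.17, adjusted p = 0.00969), as did Calr, calreticulin (0.82, SE 0.22, adjusted p = 0.0339). Ptx3 (-0.95, SE 0.17, adjusted p = 0.00583) and Calr (-0.89, SE 0.22, adjusted p = 0.0278) fell in CIA+MLIF against CIA. Mbl1, a mannose-binding lectin, passed as higher there (0.87, SE 0.23, adjusted p = 0.0384), but its signal lay below the control median on all 8 arrays.

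Of 30 other measured acute phase genes, 5 rose and 6 fell in CIA against adjuvant (16.7% and 20%, against 4.30% and 14.2% of all probe sets). In CIA+MLIF against CIA, 5 rose and 2 fell (16.7% and 6.67%, against 11.5% and 3.25% of all). Lcn2, the neutrophil and epithelial protein lipocalin 2, was at 9.72 and 9.86 in CIA+MLIF, 11.13 and 11.29 in CIA, 10.24 and 10.25 in adjuvant+MLIF and 9.51 and 9.65 in adjuvant. The CIA arrays stood above all others, with changes of 1.63 (SE 0.15, adjusted p = 0.0001) in CIA against adjuvant and -1.42 (SE 0.15, adjusted p = 0.00038) in CIA+MLIF against CIA. Its interaction of -2.08 (SE 0.21, adjusted p = 0.000608) was the 1 call of this list there. Il1rn, the interleukin 1 receptor antagonist, rose in CIA against adjuvant (0.99, SE 0.21, adjusted p = 0.0105) and fell in CIA+MLIF against CIA (-0.81, SE 0.21, adjusted p = 0.0307). Saa1, a liver-made serum amyloid A, rose in CIA against adjuvant (1.12, SE 0.28, adjusted p = 0.0255) from signals near background, at 4.75 and 5.49 in CIA and 4.18 and 3.80 in adjuvant. Orm3 fell (-0.91, SE 0.24, adjusted p = 0.0301) at similarly low signals. With MLIF, in CIA+MLIF against CIA, Orm3 (0.82, SE 0.24, adjusted p = 0.050) and albumin (Alb; 0.81, SE 0.23, adjusted p = 0.0455) passed as higher. Saa1, Orm3 and Alb lay below the control median on all 8 arrays, so these are differences between signals near background.

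Cytokines and signalling genes that drive acute phase transcription were also counted. Of 17 measured, 4 rose and 0 fell in CIA against adjuvant (23.5% and 0%, against 4.30% and 14.2% of all probe sets). In CIA+MLIF against CIA, 0 rose and 2 fell (0% and 11.8%, against 11.5% and 3.25% of all). Il1b was at 6.75 and 7.04 in CIA+MLIF, 8.03 and 9.01 in CIA, 6.94 and 7.10 in adjuvant+MLIF and 6.96 and 7.27 in adjuvant. The CIA arrays were the highest 2. Its changes were 1.41 (SE 0.29, adjusted p = 0.0101) in CIA against adjuvant and -1.63 (SE 0.29, adjusted p = 0.00612) in CIA+MLIF against CIA. Il6 (1.21, SE 0.30, adjusted p = 0.0250), the oncostatin M receptor gene Osmr (0.82, SE 0.15, adjusted p = 0.00484) and the feedback inhibitor Socs3 (0.76, SE 0.16, adjusted p = 0.0115) also rose in CIA against adjuvant. Osmr fell in CIA+MLIF against CIA (-0.66, SE 0.15, adjusted p = 0.0177), whereas Il6 (-0.93, adjusted p = 0.0727) and Socs3 (-0.23, adjusted p = 0.327) did not pass. Il6 signals lay below the control median on all arrays.

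The cell type markers differed between the groups together with these genes. The 12 neutrophil markers, averaged and set against the array median, were at 0.32 and 0.36 in CIA+MLIF, 2.54 and 2.40 in CIA, 0.80 and 0.80 in adjuvant+MLIF and 0.08 and 0.23 in adjuvant. Their summed linear signal was 2585 to 2796 in CIA+MLIF, 10062 to 11589 in CIA, 4133 to 4147 in adjuvant+MLIF and 2216 to 2572 in adjuvant. The adjuvant+MLIF arrays thus lay between CIA and the other groups, as they did for Cfp. Of 12 fibroblast and synovial markers, 7 rose and 1 fell in CIA against adjuvant, where 4.30% of all probe sets rose and 14.2% fell. Of 11 macrophage markers, 2 rose (Mpeg1 0.85 and Cd14 0.79) and 2 fell (Vsig4, which is also in the complement list, and Cd163, -1.14).

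Epidermal markers were at 3.27 and 3.40 in CIA+MLIF, 4.59 and 4.45 in CIA, -1.05 and -1.07 in adjuvant+MLIF and -1.10 and -1.13 in adjuvant. The arrays with collagen thus held a strong epidermal signal and those without it almost none. In CIA+MLIF against adjuvant+MLIF, where none of the 32 genes passed, 9 of 10 epidermal markers did. Skeletal muscle markers were at 5.45 and 5.71 in CIA+MLIF, 4.63 and 4.49 in CIA, 5.65 and 5.65 in adjuvant+MLIF and 5.61 and 5.71 in adjuvant, lowest in CIA like C7, Cd55, Clu and Vtn. Hepatocyte markers averaged -0.74 and -0.75 in CIA+MLIF, -1.02 and -0.95 in CIA, -0.60 and -0.60 in adjuvant+MLIF and -0.70 and -0.62 in adjuvant, below the array median throughout, and 3 to 5 of the 9 were above the control median on an array. The part of cell composition in the changes of the 32 genes was not tested.

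**Figure D4:**
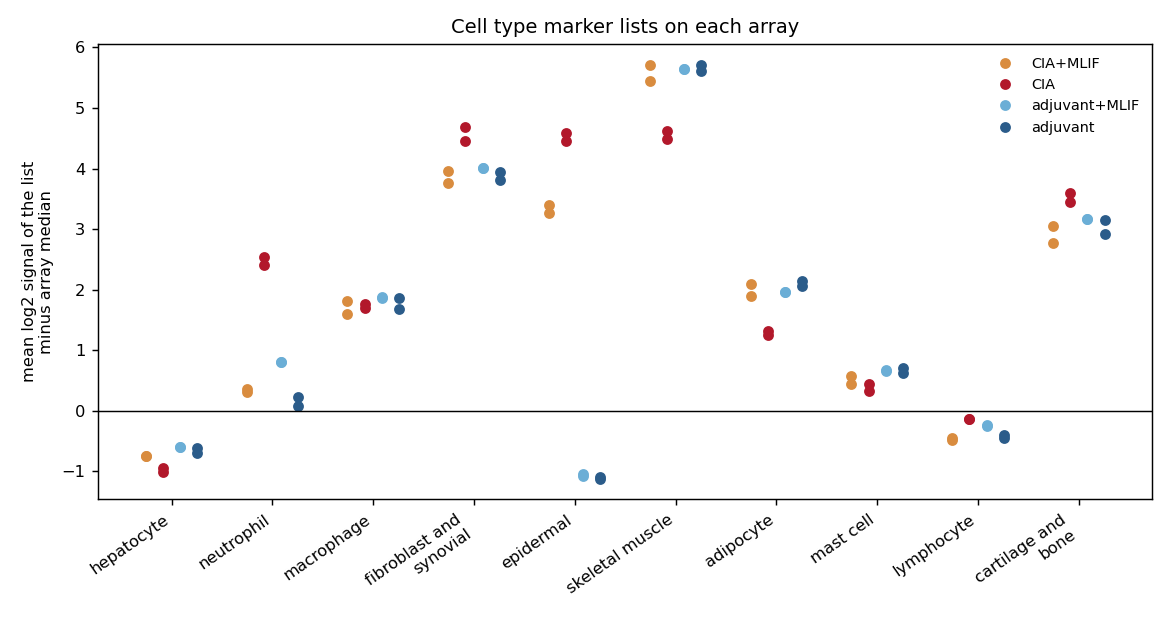
Mean log2 signal of each cell type marker list minus the array median, with CIA+MLIF, CIA, adjuvant+MLIF and adjuvant from left to right at each list. Circles are arrays. Neutrophil markers are highest in CIA (2.54 and 2.40), muscle and adipocyte markers lowest in CIA, and epidermal markers are above 3 in both collagen groups and below -1 in both others.

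Promoter windows in the RefSeq table (GRCm38.p6) were at hand for 22 of the 32 genes, as 24 windows. TTNNGNAA (C/EBP) occurred on either strand in 11 of the 24, and in 40.7% of all 32851 windows. TTCNNNGAA (STAT) occurred in the windows of 5 genes (C1ra, C7, C8a, Masp2 and Vtn), and in 8.3% of all windows. The ISRE pattern occurred in those of 4 genes (Cd46, Cd59a, Saa3 and Vtn), and in 3.44% of all. The NF-kappaB pattern (GGGA, any base, TT, any base, CC) occurred in 0 of the 24 and in 1.2% of all windows. The matches are a description of these letters in these windows only.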

How the data were processed

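The deposited table holds 1 log2 signal for each of 35557 entries and 8 arrays by the look of the deposited values. The authors' background correction, summary and normalization are not given in these sources. The first 6613 entries, an unbroken run without names, were treated as array controls and not tested. No filter was applied to the remaining 28944 probe sets, of which 21789 carry 1 gene symbol in the platform annotation, 1621 several and 5534 none.

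The 4 group means were fitted to all 8 arrays with limma 3.58.1 in R 4.3.3, on 4 residual degrees of freedom and 4.96 prior ones. The tests were two-sided, with Benjamini-Hochberg adjustment over all 28944 probe sets and a threshold of 0.05. The array control median served as a guide to background only. Promoter motifs were searched on both strands. Plotting used Python 3.11.15 and Matplotlib 3.10.9. The fit was tested on simulated data.

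The genes, roles, marker lists and motifs were chosen with earlier results of these data known. All 32 measured genes are named in the text. Of the other lists, up to 4 genes per list and comparison with the largest change past the threshold were named. Replicate numbers were not taken as pairs in the main fit. The correlation of same-numbered deviations from the group means ran from -0.11 (CIA with CIA+MLIF) to 0.39 (CIA+MLIF with adjuvant). What the latter reflects was not tested. Alternatives were to quantile-normalize or centre the arrays, to drop the lowest tercile of signal, a trended and robust variance, array weights, only the groups compared, the adjuvant+MLIF arrays averaged, a replicate block, the mean of a gene's rows and leaving out each array. A crossed replicate block, and quantile normalization with CIA replicate 1 left out, were chosen after the data were seen. Precision is limited by the number of arrays.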

Additional observations from a re-analysis of the deposited data

Results flagged for a closer look

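The effect of MLIF differed between mice with and without collagen for 4 of the 32 genes, by limma's test of the interaction with adjustment over all probe sets. C7 had an interaction of 1.52 (adjusted p = 0.00341), from a change of 1.67 in CIA+MLIF against CIA and of 0.15 in adjuvant+MLIF against adjuvant. For Saa3 the interaction was -2.00 (adjusted p = 0.0140), from -1.58 and 0.42. Cfp gave -0.95 (adjusted p = 0.0271), from -0.71 and 0.24, and Hp -0.93 (adjusted p = 0.0262), from -0.78 and 0.15. For Saa3, Cfp and Hp the 2 changes have opposite signs, but the change in adjuvant+MLIF against adjuvant did not pass for any of the 4 genes.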

How the results depend on the processing

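Array number limits the precision, and the count of genes past the threshold moved more than the directions. Main counts were 9 for CIA against adjuvant, 8 for the peptide within CIA (CIA+MLIF against CIA) and 4 for the interaction. The shares of all probe sets past the threshold were 18.5%, 14.7% and 7.24%, and they moved with the setting as well. Quantile normalization gave 16, 15 and 12, with 28.1%, 24.5% and 17.4% of all probe sets past the threshold. All probe sets passing in CIA against adjuvant then split into 4176 higher and 3951 lower, against 1245 and 4108 as deposited. In CIA+MLIF against CIA the split was 3318 higher and 3771 lower, against 3315 and 942. Centring gave 16 and 11 for the first comparison and the interaction, with 27.5% and 16.3% of all probe sets. Array weights gave 3 and 1 for the first pair, with 6.86% and 4.36% of all probe sets. They gave 2, against 0, for adjuvant+MLIF against adjuvant, with 4.98% of all probe sets. With these weights Saa3, C1s1, Cfp, Cd46, Clu and Vtn no longer passed in CIA against adjuvant. Of the 8 calls in CIA+MLIF against CIA, C7 alone was kept. When only the groups compared were fitted, 10.7% of all probe sets passed in CIA against adjuvant and 9.47% in CIA+MLIF against CIA. Only the groups compared gave 5 and 3 (no such fit is possible for the interaction), and averaging the adjuvant+MLIF arrays gave 5 for CIA+MLIF against CIA and 2 for the interaction. Leaving out each array gave 3 to 21, 1 to 23 and 1 to 16, while the share of all probe sets past the threshold ran from 7.43% to 61.2%, from 5.44% to 60.0% and from 3.64% to 45.1%. The highest counts and shares came without CIA replicate 2, which leaves the dim replicate 1. Without CIA replicate 1 the counts were 14, 9 and 9, and with quantile normalization as well they were 15 for CIA against adjuvant and 11 for the interaction. The one direction that turned at a call was C2 in CIA against adjuvant, -0.35 without CIA replicate 2 and 0.44 without CIA replicate 1, against 0.04 with both. Set against the array median, both CIA arrays lay above both adjuvant arrays for C2. The cause of these shifts between settings was not tested.

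With the replicate block, 10, 7 and 5 genes passed. The main fit did not treat the numbers as pairs. A crossed pairing of the CIA arrays, chosen after the data were seen, gave 10, 8 and 5, with 19.4%, 16.0% and 7.72%. Without the lowest tercile of signal, 24 of the 32 genes were left. C7, Cd55 and Hp passed in CIA against adjuvant, and C7 in CIA+MLIF against CIA and in the interaction, under every alternative in which they could be fitted.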
